A study of Mus musculus with 8 samples.

Results

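The 87 cytosolic ribosomal protein genes of the deposited table were compared between sorted bone marrow cells of CML mice left untreated and of CML mice under imatinib (CML-TKI). The labels call both stem cells and the study leukaemic stem cells (LSCs), a name that the markers of the CML-TKI libraries go against. Members were the symbols that begin with Rpl or Rps and a digit, together with Rplp0, Rplp1, Rplp2 and Rpsa, leaving out the Rps6k kinases and symbols with -ps, which mark copies. The table held 15576 genes. Of the members, 43 encode proteins of the large subunit, 31 proteins of the small subunit, 3 the stalk, and 10 are paralogues, retrocopies or, for Rps19bp1, a binding protein.

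The mice were C57BL/6 animals carrying the BCR-ABL and SCL-tTA transgenes, so that in both groups BCR-ABL was expressed where the stem cell leukaemia enhancer drives the tetracycline transactivator. Total RNA of sorted bone marrow cells was sequenced in bulk, 4 libraries per group. CML mice were untreated, and CML-TKI mice received imatinib, a BCR-ABL kinase inhibitor, at 400 mg/kg by gavage on alternate days for 4 weeks, given as 30 days elsewhere in the labels. The dose is that of the labels, and the study's text also gives a lower one beside this comparison. The age of the mice behind these libraries, and whether they were primary or transplanted animals, were not given in the sources used here. The labels give the sort gate of all 8 libraries as Lin-Sca1+cKit+Flt3-CD150-CD48+, whereas the study defines LSCs by CD150 and the absence of CD48. No label says that the libraries came from separate animals, so p-values measure only the spread between these samples. In bulk RNA, fewer cells of a type and less RNA per cell cannot be told apart.

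Libraries held 4939644 to 8620101 counts in CML and 1041552 to 5104268 in CML-TKI, and the single ribosomal RNA gene Rn45s took 20.2% to 38.3% and 9.23% to 22.5% of them. The fourth CML column carries the number 5 and is called CML 5. No sample of the group is titled with that number, so the column was matched to the group but not to a single sample. It stood apart from CML 1, 2 and 3, so values are also given without it. CML 1, 2 and 3 were close to each other, with a chi-square per degree of freedom between their counts of 3.56 to 4.79, against 51.3 to 55.3 between them and CML 5 and 23.9 to 60.6 between CML-TKI libraries. They differed by more than counting noise, but whether they are separate animals or repeat libraries of a sample was not tested, and with the 3 summed to 1 library edgeR called 122 genes in place of 1220. Stem cell markers summed to 1500.5 to 1692 CPM (counts scaled to library size, TMM-normalized here and below) in CML and 46.2 to 415 in CML-TKI, and all 9 tested were lower in every CML-TKI library, 4 of them past edgeR's test (4 with DESeq2 and 9 with voom). Granulocyte markers summed to 161 to 266 CPM in CML and 1474 to 8499 in CML-TKI, and 10 of the 11 rose by edgeR and voom (11 by DESeq2). Of 6 monocyte markers, 6 rose by each tool, with sums of 224 to 294 and 1041 to 5049 CPM. Megakaryocyte markers summed to 1194 to 1436 and 48.3 to 580 CPM, and 2 of 6 fell by edgeR (4 by DESeq2 and by voom). Erythroid markers summed to 92.7 to 189 and 53.4 to 31413 CPM, and edgeR called 0 of the 5 tested, with 1 lower and 2 higher at an unadjusted p under 0.05. DESeq2 gave an adjusted p to only 2 of the list and called 0, and voom called Gata1 lower and Hba-a1 higher. The erythroid maximum was that of CML-TKI 3, and the other CML-TKI libraries reached at most 329.5 CPM. B cell markers reached at most 2.88 CPM in CML, 4.91 in CML-TKI 1, 2 and 4 and 214 in CML-TKI 3. T cell markers reached at most 0.192 CPM in CML and 57.7 in CML-TKI, again in CML-TKI 3, with 3 of 4 (Cd3e, Cd3g and Cd8a) at 0 in every CML library. Outside CML-TKI 3 they reached at most 18.35 CPM in CML-TKI. The T cell list was not tested by edgeR or voom, and DESeq2 called Cd3d and Cd3e higher. Of the gate genes, Kit fell by 1.92 and Slamf1 (CD150) fell by 3.42 on the log2 scale, and Cd48 rose by 4.35. Slamf1 had 28.8 to 37.5 CPM in CML and 0.616 to 6.53 in CML-TKI, and Cd48 had 3.84 to 6.36 and 39.6 to 177. In RNA the CML libraries thus went against the CD150-CD48+ gate of the labels, though RNA does not give the surface protein sorted on. These marker shifts accompany the comparison throughout, and their part in the ribosomal protein values was not tested.

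The cytosolic ribosome joins a small subunit, which reads the mRNA, to a large subunit, which makes the peptide bond, and most of its proteins occur once per particle. Their mRNAs are among the most abundant of a cell, and many begin with a pyrimidine run, the 5′ terminal oligopyrimidine (TOP) start, through which mTORC1 controls their translation. Blood formation is sensitive to the dose of single ribosomal proteins, as in Diamond-Blackfan anaemia and the 5q deletion.

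RefSeq promoters (GRCm38.p6) were given for 66 of the 87 members, with 77 start sites. Of these starts, 42.9% held a C followed by at least 4 further C or T that began within 5 bases of the annotated start, against 18.3% of all 32851 promoters. Only the transcribed strand was read, since the run is a property of the RNA. The starts below are examples and do not reflect these shares. Rpl22 has another annotated start, also without a run, which is not shown. Each shows 15 bases before the annotated start and the first 15 of the transcript, with the run, where there was one, in capitals from the matching C nearest to the annotated start, so that pyrimidines just before it stay in lower case: Rpl22 at chr4:152324421-152324450 (plus strand), Rpl22l1 at chr3:28805493-28805522 (plus), Rps6 at chr4:86857353-86857382 (minus), Rps27 at chr3:90213634-90213663 (minus), Rps18 at chr17:33955651-33955680 (minus) and Rpl4 at chr9:64173372-64173401 (plus).
Rpl22: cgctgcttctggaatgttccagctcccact
Rpl22l1: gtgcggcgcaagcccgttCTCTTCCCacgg
Rps6: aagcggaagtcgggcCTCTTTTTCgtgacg
Rps27: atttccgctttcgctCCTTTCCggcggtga
Rps18: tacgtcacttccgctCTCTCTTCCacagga
Rpl4: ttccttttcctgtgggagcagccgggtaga

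The median log2 fold change, CML-TKI over CML, was -0.41 over 31 members with such a run and -0.45 over 34 without one. The difference between them was not tested. A missing run says only that none began within 5 bases of the annotated start, and pyrimidines further off, as in the Rpl4 window, were not counted.

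Ribosomal protein mRNAs took a smaller share of the CML-TKI libraries. Of the counts without Rn45s, the members held 2.70%, 2.59%, 2.55% and 4.38% in CML 1, 2, 3 and 5, and 2.28%, 1.998%, 1.65% and 2.16% in CML-TKI 1 to 4. Every CML-TKI library lay below every CML library, and CML 5 lay far above the other CML libraries. The exact 95% binomial interval of a share, which covers counting error only, spanned 1.62% to 1.68% at the lowest depth (CML-TKI 3). The group means were 3.05% ± 0.886 and 2.02% ± 0.274 (SD, n = 4 each), a difference of -1.03 percentage points. Without CML 5 the CML mean was 2.61% ± 0.0757 (SD, n = 3) and the difference -0.589 points. Without CML-TKI 3, the library with the erythroid and B cell markers, it was -0.907 points. With Rn45s kept in the denominator the difference was -0.507 points (2.22% ± 0.324 and 1.71% ± 0.29, SD, n = 4). As a sum over the members, the share was given no test.

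**Figure D1:**
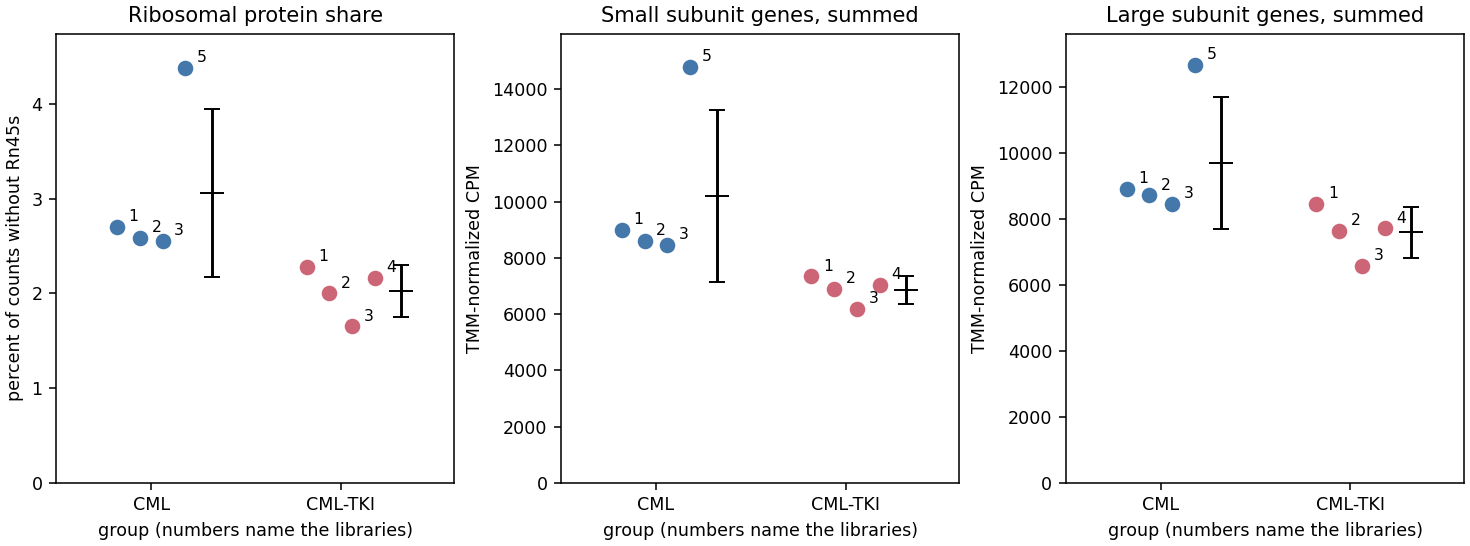
Share of counts held by the ribosomal protein genes (left, percent of counts without Rn45s) and the summed TMM-normalized CPM of small and large subunit genes (middle and right), with 1 point per library, its number beside it, and bars for mean ± SD (n = 4 per group). CML 5 lies at 4.38% against 2.55% to 2.70% in CML 1, 2 and 3, and the CML-TKI libraries lie at 1.65% to 2.28%.

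The summed level of the small subunit genes differed by more than that of the large subunit genes. Small subunit genes summed to 8999, 8590, 8451 and 14785 CPM in CML 1, 2, 3 and 5 and 7337, 6891, 6178 and 7023 CPM in CML-TKI 1 to 4, so the groups did not overlap. Large subunit genes summed to 8897, 8713, 8462 and 12667 CPM and to 8465, 7637, 6571 and 7709 CPM, where CML-TKI 1 just exceeded CML 3. The ratio of large to small subunit CPM was 0.989, 1.01, 1.001 and 0.857 in CML and 1.15, 1.11, 1.06 and 1.10 in CML-TKI, higher in every CML-TKI library. It was lowest in CML 5, and a ratio of sums over the members was given no test. Without CML 5 the CML-TKI mean was 0.79 of CML for the small and 0.874 for the large subunit sum. Abundant genes weigh most in a sum. The median log2 fold change per gene was -0.49 (small) and -0.44 (large), and -0.22 and -0.24 without CML 5.

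Gene by gene, 1 of the 86 tested members was called lower (Rpl22) and 0 were called higher by edgeR's quasi-likelihood test at a Benjamini-Hochberg adjusted p under 0.05, against 3.93% and 6.29% (10.2% in all) of the 11937 genes tested. At an unadjusted p under 0.05 the same test gave 24 lower and 0 higher, against 12.1% and 13.7% of all genes. DESeq2 called 18 members lower, against 7.94% of all genes, and limma-voom with quality weights 7, against 10.9%. Both called 0 higher, against 9.75% and 10.4%. The log2 fold change was below 0 in 80 members (93.0%), against 50% of all genes, with a median of -0.45 over the members and -0.000289 over all genes. In 28 members (32.6%) every CML-TKI library lay below every CML library, against 13.1% of all genes, and in 0 members it lay above, against 10.3%. Without CML 5, 64 members were below 0 (49.7% of all genes were), the median was -0.22, 1 member was called lower and 0 higher (2.1% and 4.48% of all genes), and 20 had an unadjusted edgeR p under 0.05, all lower (10.7% of all genes were lower and 13.4% higher). Against CML 1, 2 and 3 alone, 29 members lay below in every CML-TKI library and 1 (Rpl31) above, against 17.4% and 13.5% of all genes. The member added to the 28 was Rps6. Without CML-TKI 3, 73 members were below 0 with a median of -0.37, and 1 was called lower.

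**Figure D2:**
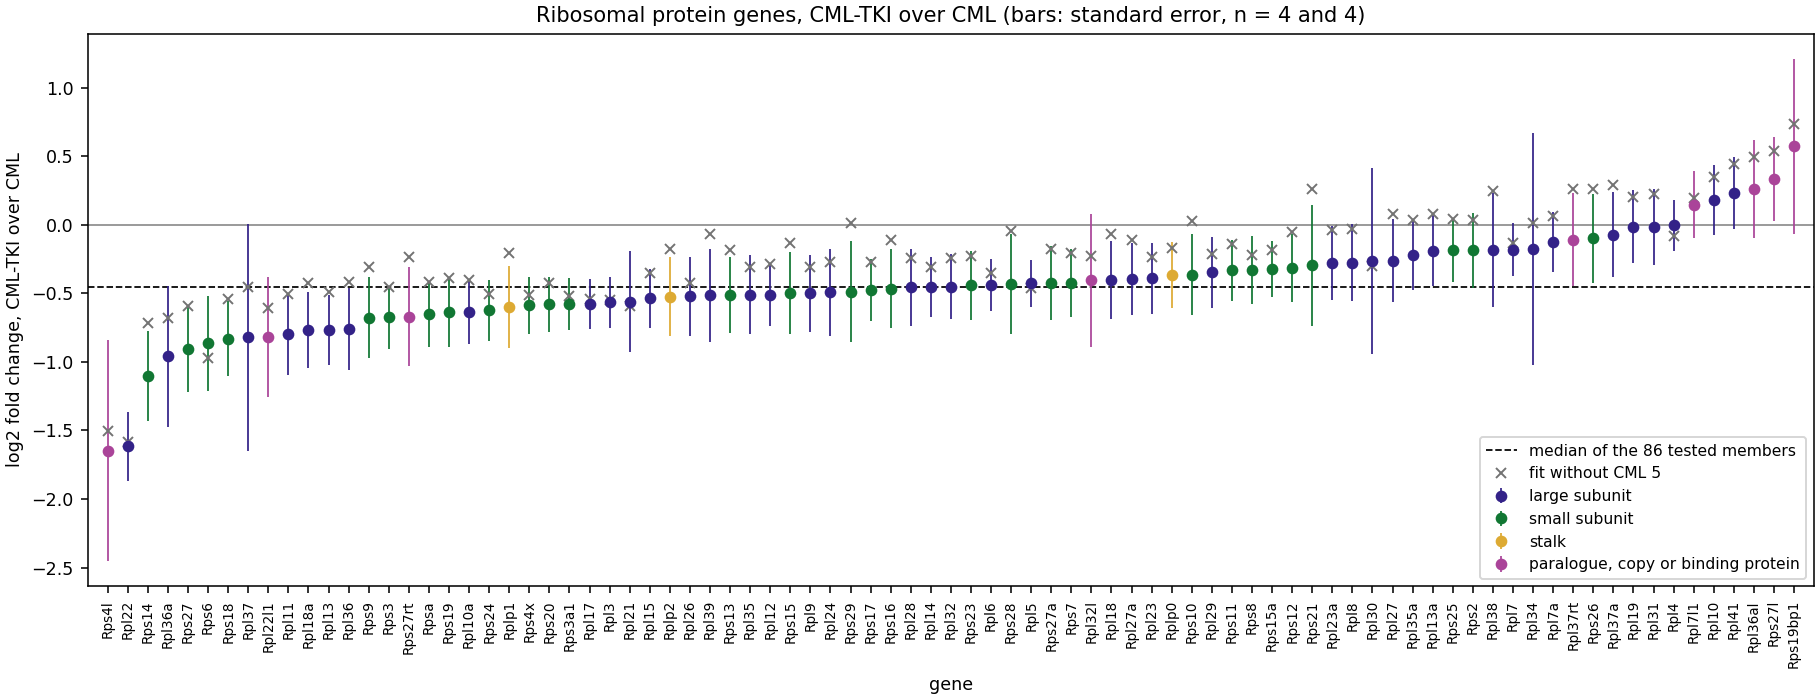
Log2 fold change (CML-TKI over CML) of the ribosomal protein genes reported here in increasing order, coloured by role, with bars for the standard error (n = 4 and 4) and crosses for the fit without CML 5. The dashed line marks the median of -0.45 over the 86 tested genes, and most crosses lie above their points, with a median of -0.22.

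Rpl22 had the clearest difference. It encodes an RNA-binding protein at the outer surface of the large subunit that is dispensable for general translation, is required for the development of αβ T cells and is lost in a share of T cell leukaemias. Its gene spans chr4:152324436-152334082 (GRCm38). Rpl22 had 203, 189, 174 and 208 CPM in CML 1, 2, 3 and 5 and 70.9, 39.7, 57.7 and 83.0 CPM in CML-TKI 1 to 4. All CML-TKI values lay well below all CML values, and unlike most members Rpl22 was hardly raised in CML 5. Its transcript of 2051 nt is longer than most of theirs. Its log2 ratio of CML 5 to CML 1, 2 and 3 was 0.142, against a median of 0.116 in 2578 other genes of over 2000 and up to 3000 nt. The means were 193 ± 15.4 and 62.8 ± 18.5 CPM (SD, n = 4), a 3.06-fold lower level, and the log2 fold change was -1.62 (SE 0.25, edgeR adjusted p = 0.00395). Without CML 5 it was -1.59 (edgeR adjusted p = 0.0139). Leaving out each library in turn gave -1.79 to -1.45 with edgeR adjusted p-values of 0.00309 to 0.0202. With CML 1 to 3 summed to 1 library the change was -1.68 and the call was lost (edgeR adjusted p = 0.0724). The change of Rpl22 lay 1.16 log2 units further down than the median member.

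Rpl22l1 is the paralogue of Rpl22 and can take its place in the ribosome, and Rpl22 protein is known to hold its mRNA down. Rpl22l1 (chr3:28805508-28807424) had 38.2, 41.2, 30.9 and 61.5 CPM in CML and 18.5, 33.9, 7.62 and 35.4 CPM in CML-TKI. The groups overlapped, at means of 42.9 ± 13.1 and 23.8 ± 13.2 CPM (SD, n = 4). Its log2 fold change was -0.82 (SE 0.44, edgeR adjusted p = 0.275), so no rise opposite to Rpl22 was seen. Without CML 5 it was -0.61.

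**Figure D3:**
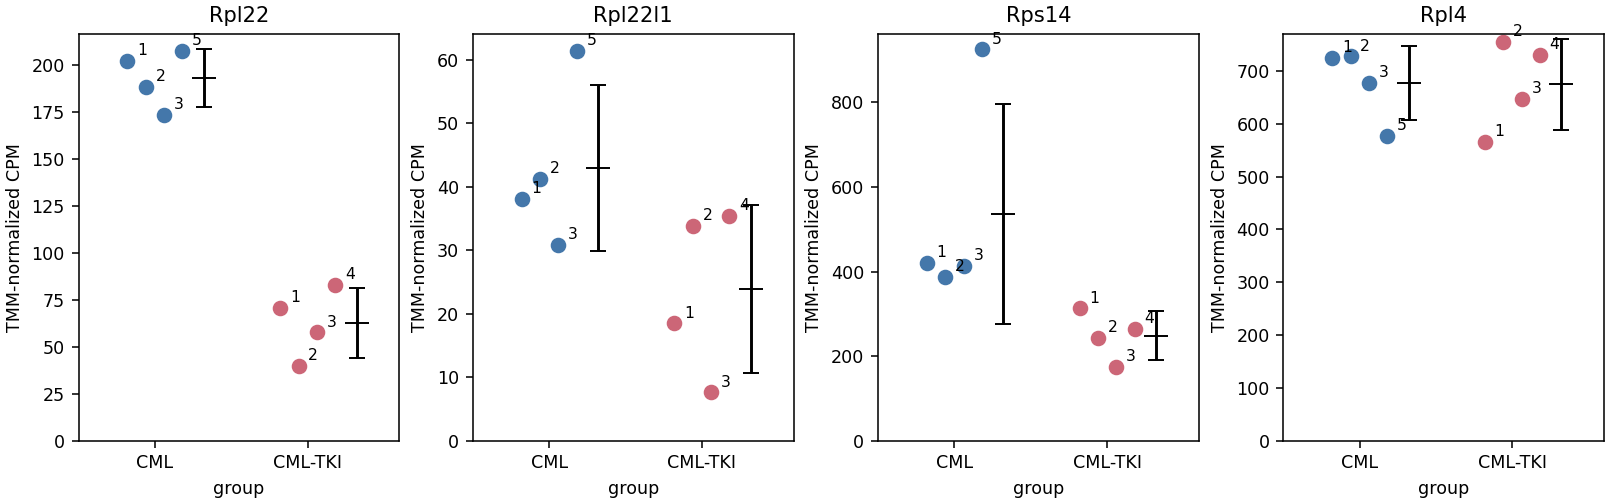
TMM-normalized CPM of Rpl22, Rpl22l1, Rps14 and Rpl4 in each library (points, library numbers beside them), with mean ± SD (n = 4 per group). Rpl22 lies at 174 to 208 CPM in CML and 39.7 to 83.0 in CML-TKI, Rps14 is raised in CML 5 (925 CPM), and Rpl4 has the same mean in both groups (677 and 675 CPM).

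Of the 43 large subunit genes, 41 were below 0, with a median log2 fold change of -0.44, and 12 lay below CML in every CML-TKI library, against 50% and 13.1% of all genes. Without CML 5 the median was -0.24. After Rpl22 the lowest changes were those of Rpl36a and Rpl37, both weakly counted here. Rpl36a had 11.1 to 23.9 CPM in CML and 3.27 to 14.5 in CML-TKI (log2 fold change -0.96, SE 0.52, edgeR adjusted p = 0.278). Rpl37 had 9.97 to 25.95 CPM and 0 to 21.7 CPM (-0.82, SE 0.83, edgeR adjusted p = 0.583). Both overlapped between the groups, and without CML 5 they changed by -0.68 and -0.46. Rpl36a changed by -1.46 without CML-TKI 4 (edgeR adjusted p = 0.111) and Rpl37 by -1.88 without CML-TKI 1 (edgeR adjusted p = 0.113).

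At the other end stood Rpl41, Rpl10 and Rpl4. Rpl10, which is added late to the large subunit and permits subunit joining, had 558, 590.0, 515 and 837 CPM in CML and 1003, 678, 538 and 610.5 in CML-TKI (log2 fold change 0.18, SE 0.26, edgeR adjusted p = 0.712). Rpl41, the smallest ribosomal protein, had 299.8, 229.9, 276 and 447 CPM and 481, 381, 310.3 and 293 CPM (0.23, SE 0.26, edgeR adjusted p = 0.635). In both genes the highest value was that of CML-TKI 1, without which the changes were -0.04 and 0.06, and without CML 5 they were 0.34 and 0.44. Rpl4, whose protein lines the exit tunnel of the nascent chain, had 725, 728, 677 and 577 CPM and 565, 756, 647 and 731 CPM (-0.00, SE 0.19, edgeR adjusted p = 0.991). Its sign changed with the settings. Rpl8, near the site of peptide bond formation, had 642 ± 208 and 529.9 ± 153 CPM (SD, n = 4), with a log2 fold change of -0.28 (edgeR adjusted p = 0.586) and of -0.03 without CML 5. With each library left out in turn, Rpl8 changed by -0.49 to -0.03 (edgeR adjusted p of 0.226 or more).

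All 31 small subunit genes were below 0, with a median of -0.49, and 14 lay below CML in every CML-TKI library, against the same shares of all genes. Without CML 5, 25 were below 0 and the median was -0.22. Rps14, the gene whose loss underlies the anaemia of the 5q deletion, had 419, 387, 413 and 925 CPM in CML and 313, 242, 175 and 264 in CML-TKI. No value overlapped, although CML 5 alone carried much of the CML mean of 536 ± 259.8 CPM, against 249 ± 57.1 (SD, n = 4). Its log2 fold change was -1.11 (SE 0.33, edgeR adjusted p = 0.0599), and -0.71 without CML 5 (edgeR adjusted p = 0.0796). It passed the threshold without CML-TKI 1 (-1.24, edgeR adjusted p = 0.0355), where 11% of all genes were called lower. DESeq2 and voom called it lower with every library kept (adjusted p = 0.00975 and 0.0274).

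Rps27, a zinc finger protein of the small subunit, had 44.9, 36.2, 45.5 and 84.8 CPM in CML and 33.2, 25.2, 30.5 and 24.0 in CML-TKI (log2 fold change -0.91, SE 0.31, edgeR adjusted p = 0.0979). The groups did not overlap, DESeq2 called it lower (adjusted p = 0.0482), voom did not, and without CML 5 the change was -0.59. Rps4x, an X-linked gene, had 1006, 937, 926 and 1190.0 CPM against 866, 614, 531 and 687 CPM (-0.59, SE 0.21, edgeR adjusted p = 0.108). DESeq2 and voom called it lower (adjusted p = 0.0183 and 0.0208). In edgeR it passed the threshold without CML-TKI 1 (adjusted p = 0.028), and without CML 5 the change was -0.51.

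The smallest changes of the small subunit were those of Rps26, Rps2 and Rps25, and each turned positive without CML 5. Rps26 had 99.3, 104, 101 and 220.3 CPM in CML and 155, 147, 93.6 and 92.01 in CML-TKI, with a log2 fold change of -0.10 in the full fit and 0.26 without CML 5 (edgeR adjusted p = 0.882 and 0.556). Rps2 changed from -0.19 to 0.03 and Rps25, used by several viral internal ribosome entry sites, from -0.19 to 0.04.

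The stalk recruits the translation factors that hydrolyse GTP. Rplp0, its base and the member with the largest total level, had 1855, 1606, 1644 and 2754 CPM in CML and 1545, 1538, 1140.0 and 1866 in CML-TKI (log2 fold change -0.37, SE 0.24, edgeR adjusted p = 0.376). Rplp1 had 417, 405, 389.9 and 921 CPM against 385, 356, 304 and 361 CPM (-0.60, SE 0.30, edgeR adjusted p = 0.245). Rplp2 had 76.6, 66.3, 65.1 and 146 CPM against 63.6, 61.0, 58.8 and 62.8 CPM (-0.52, SE 0.29, edgeR adjusted p = 0.285). Rplp1 and Rplp2 did not overlap between the groups, Rplp0 did. Most counts of the Rplp2 pair lay on the copy Rplp2-ps1. With the copy's counts added, Rplp2 had 206, 169.9, 176 and 360.03 CPM against 193, 153, 208 and 209.9 CPM, so the groups overlapped, and changed by -0.26 (edgeR adjusted p = 0.606). Without CML 5 the 3 changes were -0.17, -0.21 and -0.18.

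Of the 10 paralogues, retrocopies and the binding protein, 9 were tested. Of these, 4 were above 0 and 5 below, with a median of -0.11 (0.19 without CML 5), and 0 lay below CML in every CML-TKI library (13.1% of all genes). Among these genes edgeR, DESeq2 and voom called 0, and 0 had an unadjusted edgeR p under 0.05. The highest and lowest changes were those of Rps19bp1, which binds the Rps19 protein (log2 fold change 0.57, SE 0.64) and of Rps4l, a relative of Rps4x (-1.65, SE 0.81, 6.33 to 14.2 CPM in CML and 0 to 8.79 in CML-TKI). Leaving out each library in turn gave 0.14 (without CML-TKI 3) to 0.79 for Rps19bp1 and -2.82 (without CML-TKI 4, edgeR adjusted p = 0.0511) to -1.34 for Rps4l. Rps27l, a p53 target, had 23.0 ± 7.04 CPM in CML and 28.9 ± 4.58 in CML-TKI (SD, n = 4), with a change of 0.33 (edgeR adjusted p = 0.537). Rpl36al changed by 0.26, Rpl7l1 by 0.15, Rpl37rt by -0.11, Rpl32l by -0.41 and Rps27rt by -0.67, with edgeR adjusted p-values between 0.281 and 0.877. Without CML 5, Rps27l changed by 0.54, Rpl36al by 0.49, Rpl37rt by 0.26, Rpl32l by -0.23 and Rps27rt by -0.23. With each library left out in turn, Rpl7l1 changed by 0.02 to 0.32 and Rps27l by 0.18 to 0.54. Rpl10l, a testis paralogue of Rpl10, was not tested, with 0, 1, 0 and 0 counts in CML and 3, 3, 3 and 0 in CML-TKI. The difference between these genes and the core members was not tested.

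CML 5 exceeded the mean of CML 1, 2 and 3 in 81 of the 86 tested members. The exceptions were Rpl4, Rps6, Rpl5, Rpl21 and Rpl30, picked out after their values were seen. Over the core members, the median coefficient of variation in CML was 30.0% with CML 5 and 5.66% without it, against 14.7% in CML-TKI. In CML-TKI, library 3, the one with the fewest counts, was the lowest for 53 of 86 members. The raised level of CML 5 went with transcript length in all genes. For transcripts of up to 1000 nt the median log2 ratio of CML 5 to CML 1, 2 and 3 was 0.82 in 58 members and 0.72 in 470 other genes, while over all other genes it was -0.000337. Between 1001 and 1500 nt it was 0.74 in 14 members and 0.45 in 945 other genes. Across genes the ratio fell with length to a like degree in members (Spearman's rho -0.53, 83 genes) and in other genes (-0.53, 11175 genes), all points sharing the same libraries. The median log2 ratio of the CML-TKI mean to CML 1, 2 and 3 up to 1000 nt was -0.20 in members and 0.24 in other genes. With each library's trend on length taken out, the members' median was -0.30 against 0.10 over all genes, 69 of 83 members were below 0, and 8 were called lower and 0 higher, against 4.45% and 8.76% of all genes. Member transcripts had a median length of 833 nt (345 to 5179 nt).

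**Figure D4:**
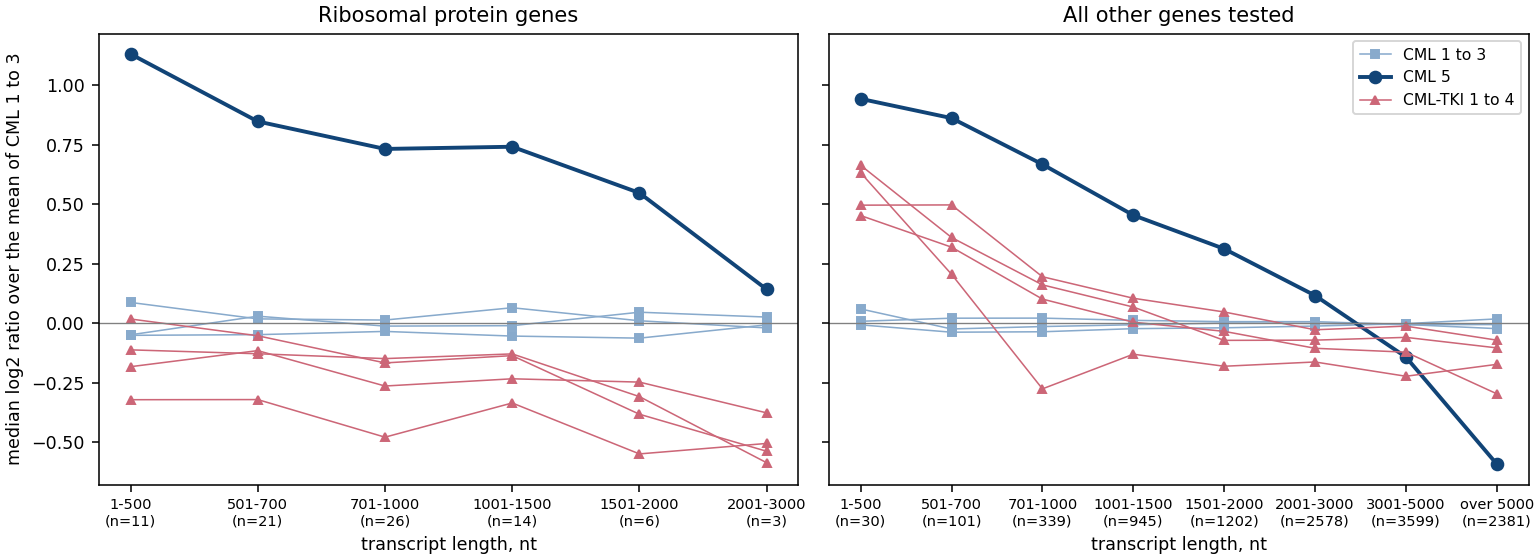
Median log2 ratio of each library to the mean of CML 1, 2 and 3 in classes of transcript length (nt, number of genes in brackets, classes under 3 genes not drawn), for ribosomal protein genes (left) and all other tested genes (right). CML 5 is raised in short transcripts of both sets, whereas the CML-TKI libraries lie above 0 in other genes up to 700 nt and, with one point excepted at 0.0178, below 0 in the ribosomal protein genes.

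Several members shared their counts with copies elsewhere in the genome, and the sources used here do not say how reads that match both were divided. Of 8 rows with a -ps symbol, the largest was Rps6-ps4 (chr2:75190995-75191854). Rps6 is the small subunit protein phosphorylated by the S6 kinases downstream of mTORC1. The annotated copy (GENCODE vM21, GRCm38) matched an Rps6 transcript at all 750 bases, so short reads inside it cannot be assigned. Its first 30 bases and those of Rps6 are shown, followed by a stretch in which Rpl34 and its copy Rpl34-ps1 differ (bases 289 to 318 of the copy, the differing base in capitals).
Rps6: atgaagctgaacatctccttccccgccacc
Rps6-ps4: atgaagctgaacatctccttccccgccacc
Rpl34: attgaggagcagaaaatcgttgtgaaagtC
Rpl34-ps1: attgaggagcagaaaatcgttgtgaaagtG

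The Rps6 row held 36.9, 32.02, 41.9 and 26.9 CPM in CML and 13.4, 12.6, 29.4 and 21.7 in CML-TKI (log2 fold change -0.86, SE 0.34, edgeR adjusted p = 0.145). Rps6-ps4 held 1045, 915, 985 and 1087 CPM and 608, 756, 682 and 796 CPM, between 95.9% and 98.4% of the pair's counts. Every CML-TKI library lay below every CML library, and the change was -0.50 (SE 0.18, edgeR adjusted p = 0.107). Without CML 5 Rps6 changed by -0.97 and Rps6-ps4 by -0.48. The Rps6 row alone therefore does not measure Rps6 mRNA. Rpl34-ps1 held 89.3% to 100% of the counts of its pair, with 2 mismatches over 354 bases, and changed by -0.40 (edgeR adjusted p = 0.361). Rpl14-ps1 held 71.1% to 77.9%, with 229, 228, 227 and 325 CPM in CML and 151, 207, 147 and 218 in CML-TKI, again without overlap (log2 fold change -0.48, edgeR adjusted p = 0.216, and -0.34 without CML 5). Rpl31-ps12 held 70.9% to 80.1% and Rplp2-ps1 59.4% to 71.7%, with changes of -0.21 and -0.11 (edgeR adjusted p = 0.719 and 0.851). The groups overlapped in Rpl34-ps1, Rpl31-ps12 and Rplp2-ps1, and without CML 5 these copies changed by -0.13, 0.15 and 0.16. Adding the copies' counts to their genes left the members' median at -0.45 and the calls at 1.

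**Figure D5:**
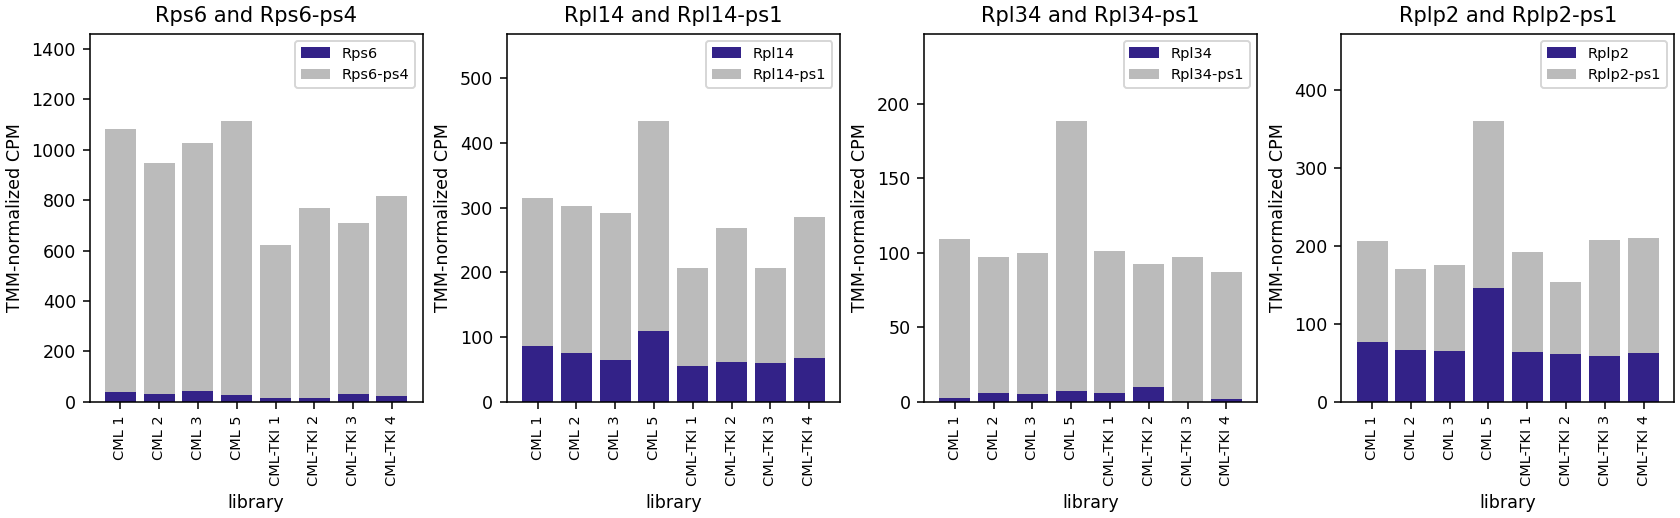
TMM-normalized CPM of 4 ribosomal protein genes (dark) and of their -ps copies (grey), stacked, in each library. The copy holds most of each bar, up to 98.4% for Rps6-ps4 and 100% for Rpl34-ps1, and the summed Rps6 bars are lower in every CML-TKI library.

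Levels differed widely among the core and stalk members. Per kilobase of transcript, the mean CPM of these 77 genes had a median of 186 and a lowest value of 7.74. Among the highest were Rplp0 with 1447 ± 396 CPM per kb in CML and 1121 ± 219 in CML-TKI (SD, n = 4), Rplp1 with 1069 ± 519 and 704 ± 68.7, and Rps4x with 1041 ± 125 and 692 ± 146. Neighbours in the order of these genes lay within each other's SD in CML. Among large subunit genes Rpl10 (782 ± 181 and 885 ± 257), Rpl41 (716 ± 215 and 839 ± 196) and Rpl8 (754 ± 245 and 623 ± 180.2) stood highest. Rps14 had 898 ± 435 and 417 ± 95.6 CPM per kb. Rpl34, most of whose pair's counts lay on its copy, and Rpl30 were lowest. These levels leave out the counts on -ps copies. The Rps6 row had 34.4 CPM in CML and 19.3 in CML-TKI, against 1042 and 730 with Rps6-ps4 added. Its low place in this order therefore does not describe Rps6 mRNA. The order also depends on the transcript used, which had 5179 nt for Rps15a and 3706 nt for Rps20.

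Of the 17 genes mutated in Diamond-Blackfan anaemia or lost with the 5q deletion, 17 were below 0 (median -0.48), edgeR called 0, DESeq2 4 lower and voom 2 lower, against 3.93%, 7.94% and 10.9% of all genes. At an unadjusted edgeR p under 0.05, 7 were lower (12.1% of all genes), and 8 lay below CML in every CML-TKI library (13.1% of all genes and 32.6% of the members). Without CML 5, 11 were below 0 and the median was -0.27. Rpl5 and Rpl11, which with 5S RNA bind and inhibit the p53 ligase Mdm2, are described after their values were seen. Rpl5 had 656, 677, 662 and 619.8 CPM in CML and 443, 512, 536 and 458 in CML-TKI (log2 fold change -0.43, SE 0.17, edgeR adjusted p = 0.15). Rpl11 had 52.5, 50.8, 52.6 and 101 CPM and 34.7, 47.4, 28.3 and 36.4 CPM (-0.80, SE 0.30, edgeR adjusted p = 0.126). Neither gene overlapped between the groups. DESeq2 and voom called Rpl5 lower (adjusted p = 0.00411 and 0.0328) and neither called Rpl11. Without CML 5 the changes were -0.46 and -0.50.

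Other genes of translation mostly passed no test. Over all genes edgeR called 3.93% lower and 6.29% higher, and 12.1% and 13.7% had an unadjusted p under 0.05, against which the counts of each list are to be read. Of the cytosolic ribosome genes outside the symbol rule, Rack1 and Fau changed by -0.45 and -0.36, and neither was called (edgeR adjusted p = 0.251 and 0.470, neither with an unadjusted p under 0.05). Without CML 5 they were -0.25 and -0.01. Of 12 elongation, termination and recycling genes, 5 were above 0 and 7 below (median -0.05), and edgeR called 0, with 1 lower and 1 higher at an unadjusted p under 0.05. Of 40 initiation and poly(A) binding genes, 26 were above 0 (median 0.19), and edgeR called 0, with 1 lower and 2 higher at an unadjusted p under 0.05. DESeq2 and voom each called Eef2k lower and Etf1 higher in the first list, DESeq2 called Eif3f lower in the second, and both called neither Rack1 nor Fau. Of 30 tested genes of mTORC1, its TOP mRNA binding proteins and the Myc network, 19 were above 0 and 11 below (median 0.12). Only Mycn was called by edgeR, lower, from 199 ± 51.0 to 13.5 ± 22.2 CPM (SD, n = 4, log2 fold change -3.74, SE 1.04, edgeR adjusted p = 0.0493). DESeq2 and voom also called Mycn lower and no other gene of the list. Without CML 5 its change was -3.55 and the edgeR call was lost (adjusted p = 0.110). Of 14 other transcripts known to have a TOP start, 6 were above 0 (median -0.11) and edgeR called 1, Vim, an intermediate filament gene, which rose from 163 ± 10.8 to 1186 ± 528 CPM (SD, n = 4, log2 fold change 2.87, SE 0.32, edgeR adjusted p = 8.70e-04). DESeq2 and voom called Vim too, and DESeq2 called Snhg8, the host of a small nucleolar RNA, lower. Of 16 genes listed as ribosomal protein chaperones, late assembly factors and p53 arm genes, 8 were above 0 (median -0.06). Among them edgeR called 1, the p53 target Cdkn1a (3.27, SE 0.63, edgeR adjusted p = 0.0110). DESeq2 and voom called it too. DESeq2 also called Aar2 lower, which was on the list but is not known to belong to any of these kinds. Tsr2, whose protein is a chaperone of Rps26, was called lower by voom. Vim and Cdkn1a were still called by edgeR without CML 5 (2.88 and 3.22). In that fit the medians were -0.0436 (elongation list), 0.117 (initiation), 0.156 (mTORC1 and Myc), -0.0118 (other TOP transcripts) and 0.00738 (chaperones and p53 arm). Whether these lists differ from the ribosomal protein genes was not tested.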

How the data were processed

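Per the methods and labels, the authors sorted the cells, extracted total RNA (RNeasy Plus mini kit) and made Nextera XT libraries, whose reads were aligned to mm10 by STAR 2.6.1d and counted over RefSeq transcripts by Partek 8.0 (versions from the submitters' processing notes). They deposited estimated counts per gene, without normalization, and 8.32% to 22.1% of a library's values were not whole. Strand use and the handling of reads shared by copies were not given in the sources used here. The counts were rounded and fitted over all genes in edgeR 4.0.16 (R 4.3.3) with TMM, filterByExpr (minimum count 10, minimum total count 15), the robust quasi-likelihood test and Benjamini-Hochberg adjustment at 0.05, which kept 11937 genes and 86 members. Standard errors are the log2 fold change over the square root of F. Library ratios by length used CPM plus 1. The floor of 3 counts was 0.406 to 0.576 CPM (TMM-normalized) in CML and 0.566 to 3.27 in CML-TKI, and covers counting error only.

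Levels per kb used the longest GENCODE vM21 transcript linked to RefSeq. With the longest transcript of any kind, 5 of the top 6 members were shared. Named genes were, by rule, members past the threshold, the 3 highest and 3 lowest log2 fold changes and the 3 highest levels per length in each subunit, the stalk genes, the paralogues and list genes past the threshold. Others are said to be chosen after their values were seen, or serve as examples. The members and lists were chosen with earlier results of these data known, and Rpl32l and Rpl37rt were placed among the paralogues after the table was read. CML 1 to 3 were kept as separate libraries, as labelled. Alternatives were DESeq2 1.42.0, limma-voom with quality weights (limma 3.58.1), other normalizations, filters, thresholds and libraries. Human data were not used here. Some results that the named-gene rule takes are not reported here.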

Additional observations from a re-analysis of the deposited data

Results flagged for a closer look

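Of 58 groups of 4 libraries tested, 12 held a library whose gap to its neighbour exceeded Dixon's 95% critical value. Chance flags about 1 in 20, or 2.9 here. CML 5 gave 10 of the 12, among them the ribosomal protein share (4.38%, against 2.55% to 2.70% in CML 1, 2 and 3) and the ratio of large to small subunit CPM (0.857, against 0.989 to 1.01). The genes were Rpl8 (954 CPM), Rps14 (925 CPM), Rps25 (188 CPM), Rps26 (220.3 CPM), Rplp1 (921 CPM), Rplp2 (146 CPM), Rpl37rt (234 CPM) and Rps27rt (80.2 CPM), each the highest CML value. The others were Rpl10l in CML 2 (0.192 CPM, a single count, against 0) and Rpl37rt in CML-TKI 1 (194 CPM, against 99.8 to 113). Genes of 1 library are not independent of each other, and the cause was not tested.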

How the results depend on the processing

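The members' median log2 fold change was below 0, and 0 members were called higher, in every alternative run. Relative to the median of all genes it lay between -0.10 (limma-voom, -0.22 against -0.11) and -0.69 (CML 1 to 3 summed). Members called lower numbered 1 as reported, 18 with DESeq2, 7 with voom, 3 with library totals without Rn45s, 3 with TMM without ribosomal protein genes and Rn45s, 10 at an adjusted p under 0.1, 0 with CML 1 to 3 summed to 1 library, and 1 to 5 when 1 library was left out. The 5, without CML-TKI 1, were Rpl17, Rpl22, Rps14, Rps24 and Rps4x. Chosen after seeing the data, leaving out CML 5 and CML-TKI 1 together gave 8, and removing the length trend 8. Over all genes 1220 were called as reported, 2420 with DESeq2, 2544 with voom, 1957 at 0.1, 122 with CML 1 to 3 summed and 2362 without CML 5 and CML-TKI 1. Leaving out 1 library gave 505 (without CML 1) to 2504 (without CML-TKI 1), with 552, 570 and 806 without CML 2, 3 and 5. The median of all genes moved to -0.14 with totals without Rn45s and -0.11 with TMM without ribosomal protein genes, the members' median to -0.59 and -0.56.

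Libraries with the same number did not pair (correlations of deviations -0.02, 0.15 and 0.09). With the replicate block on libraries 1 to 3, 193 genes were called, against 589 without the block, and Rpl22 stayed the single member called, with a members' median of -0.28 against -0.13 over all genes. In these libraries with the block Rps2 was 0.0357, Rps26 0.36 and Rpl37rt 0.27. Without CML 5 alone, and with no block, they were already 0.0312, 0.26 and 0.26.

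Without CML 5 the members below 0 fell in number from 80 to 64. Among the genes named by rule, signs turned in 7. Leaving out 1 library gave -0.0832 to 0.0679 for Rpl4, -0.0411 to 0.34 for Rpl10, -0.28 to 0.0386 for Rps25, -0.34 to 0.0312 for Rps2, -0.24 to 0.26 for Rps26, -0.0175 to 0.49 for Rpl36al and -0.39 to 0.26 for Rpl37rt. Rpl4 was also 0.0315 with library totals, 0.0420 with CML 1 to 3 summed, 0.0131 with thinned libraries, 0.0157 without CML 5 and CML-TKI 1 and 0.14 with the length trend removed. Under voom Rps25 was 0.0620, Rps26 0.15 and Rpl37rt 0.14. Without CML 5 and CML-TKI 1 they were 0.0663, 0.15 and 0.00728, and with the length trend removed Rps25 was 0.0125 and Rps26 0.0698. The causes were not tested. Depth limits CML-TKI 3 most, where 3 counts are 3.27 CPM.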
